A study of Mus musculus with 2 samples.

Results

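A set of 38 mouse genes that serve DNA replication and are used together as markers of S phase was followed in single cells from wild type (WT) and Cnot8 knockout (KO) mouse embryonic stem cells (ESCs) and from epiblast-like cells made from them in 48 h (48h-EpiLCs). The genes were taken by symbol from the gene lists of both libraries, by a rule that uses no measured value, although the set was proposed with earlier results of these data known. All 38 were present among the 32286 features of each list. A ROSA mT/mG reporter, a membrane-targeted tdTomato, marked the WT cells, and KO cells lacked Cnot8, the gene for a deadenylase subunit of the Ccr4-Not complex, with ICR given as the strain of both libraries. Cnot8 KO lines were made from blastocysts of matings between mice heterozygous for a CRISPR/Cas9 mutation and were grown from picked single colonies, so that a line is 1 derivation, and the WT and KO cells differ in the reporter and in Y-linked transcripts besides Cnot8. ESCs were grown in serum with LIF on feeder cells, which are inactivated fibroblasts, and 48h-EpiLCs in N2B27 medium with activin A, bFGF and KSR on Matrigel. Equal cell numbers of both lines were pooled into 1 droplet library per stage, at 0 h and 48 h. The labels give "wild type" as the genotype of both libraries although their titles name both lines, and they point to tdTomato for telling the lines apart.

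Cells were kept at 1000 or more detected genes and up to 10% mitochondrial counts, which left 11054 of 13184 barcodes in the ESC library and 9400 of 12427 in the 48h-EpiLC library, with 41 barcode sequences present in both libraries. A cell was placed in the WT class with at least 1 tdTomato count and 0 counts of the Y-linked genes Ddx3y, Eif2s3y, Kdm5d and Uty, and in the KO class with 0 tdTomato counts and at least 2 Y-linked counts. Counts are unique molecular identifiers (UMIs), each standing for 1 captured transcript. The classes held 435 WT ESCs, 2978 KO ESCs, 368 WT 48h-EpiLCs and 2977 KO 48h-EpiLCs, with median depths of 13151, 13368, 15598 and 17628 UMIs per cell, and 69.1% and 64.4% of the kept cells of the libraries fell in no class. Summed over a class this gave 6154790 to 59291903 UMIs, and the totals of the libraries were 144584246 and 163771168 UMIs. Cnot8 transcripts were present in all classes, at 43.1 CPM (UMIs of the gene over all UMIs of the class, on the counts-per-million scale) in WT ESCs, 72.1 CPM in KO ESCs, 49.7 CPM in WT 48h-EpiLCs and 62.6 CPM in KO 48h-EpiLCs. The libraries count the 3′ ends of transcripts and the mutation was placed in an early exon, so that these counts do not check the knockout. The 5 markers of the 48 h stage (Fgf5, Otx2, Pou3f1, Dnmt3b, Dnmt3a) summed to 441 and 517 CPM in WT and KO ESCs and to 1286 and 1242 CPM in WT and KO 48h-EpiLCs. Of the 10 feeder fibroblast markers, 9 were detected in WT ESCs and 10 in KO ESCs, at summed levels of 13.5 and 43.9 CPM.

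DNA replication is prepared in G1, when Cdc6 and its partners load the MCM helicase ring onto origins, and is started in S phase, when Cdc45 and the GINS complex turn the ring into a moving helicase. Polymerases, a sliding clamp, nucleotide synthesis and histone chaperones follow the fork, and many of their genes are driven by E2F transcription factors, which act once the Rb proteins are phosphorylated. Mouse ESCs are known for a short G1 phase and a large share of cells in S phase.

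Promoter sequence was used to look for a property that the members share outside the counts. A promoter window from RefSeq (build GRCm38.p6, 250 bases before to 50 bases after the start) was matched for 28 of the 38 members. The windows were searched on both strands for the E2F-type words TTTCCCGC, TTTCGCGC, TTTGGCGC and TTTGCCGC, which can overlap each other when read from opposite strands. At least 1 of these words lay in 11 of the 28 windows (39.3%), against 2.6% of 27025 genes with a window. Among 71 other replication genes, such as Mcm3, Orc1 and Rpa2, 24 of the 59 with a window held one (40.7%), and among 52 genes of the G2 and M phases 3 of the 46 with a window did (6.52%). The word TTTGAA, the cell cycle homology region known from promoters of G2/M genes, was in 6 of the 28 member windows (21.4%), in 33 of the 46 G2/M windows (71.7%) and in 20.2% of all genes. The word CCAAT was in 19 of the 28 member windows (67.9%) and in 41.1% of all genes. CCAAT was also in 35 of the 46 G2/M windows, so that it was shared by both lists, whereas the E2F-type words were frequent in the replication genes and TTTGAA in the G2/M genes.

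The upstream stretches of 6 members are printed as examples of these words, which 11 of the 28 windows held, from 25 bases before the first E2F-type word to at most 25 bases after the last, on the strand of the gene, with the words in capitals. In GRCm38.p6 they lie at chr8:75109331-75109392 on the plus strand for Mcm5, chr1:128359720-128359840 on the minus strand for Mcm6, chr11:98907988-98908045 on the plus strand for Cdc6, chrX:93632261-93632318 on the minus strand for Pola1, chr4:32615269-32615326 on the plus strand for Casp8ap2 and chr1:191575545-191575577 on the minus strand for Dtl. None of their bases lies in an exon that GENCODE annotates for the gene.
Mcm5: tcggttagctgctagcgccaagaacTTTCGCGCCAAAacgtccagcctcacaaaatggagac
Mcm6: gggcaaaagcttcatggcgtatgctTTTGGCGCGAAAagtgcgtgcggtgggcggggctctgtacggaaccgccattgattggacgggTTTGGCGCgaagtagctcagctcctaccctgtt
Cdc6: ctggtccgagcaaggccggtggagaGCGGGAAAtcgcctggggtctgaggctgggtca
Pola1: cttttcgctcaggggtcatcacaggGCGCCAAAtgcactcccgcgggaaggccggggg
Casp8ap2: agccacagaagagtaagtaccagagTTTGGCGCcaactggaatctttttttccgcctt
Dtl: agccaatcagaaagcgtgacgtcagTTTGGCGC
In the genes for the helicase subunits Mcm5 and Mcm6, 2 words on opposite strands overlapped, at -153 and -149 from the start in Mcm5 and at -110 and -106 in Mcm6, and Mcm6 held a further word at -47. In Cdc6 and Pola1 the word was on the opposite strand, in both at -138. A match is a description of these letters and no evidence of binding.

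As a set, the replication genes were lowest in WT 48h-EpiLCs and highest in KO 48h-EpiLCs. The summed level of the 38 genes was 5501 CPM in WT ESCs, 5738 CPM in KO ESCs, 5137 CPM in WT 48h-EpiLCs and 5917 CPM in KO 48h-EpiLCs. Levels ran from 11.05 to 1077 CPM in WT ESCs, with a median of 91.7 CPM, and from 11.3 to 1041 CPM in KO 48h-EpiLCs, with a median of 111 CPM. Each 3′ tag stands for 1 molecule whatever the length of the transcript, so that levels were not divided by length. Nasp, a histone chaperone, made up 17.6% to 21.1% of the summed level, and Hells, a chromatin remodeller needed for DNA methylation, 7.34% to 9.75%. Each gene's value in a class came from at least 67 UMIs.

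**Figure D1:**
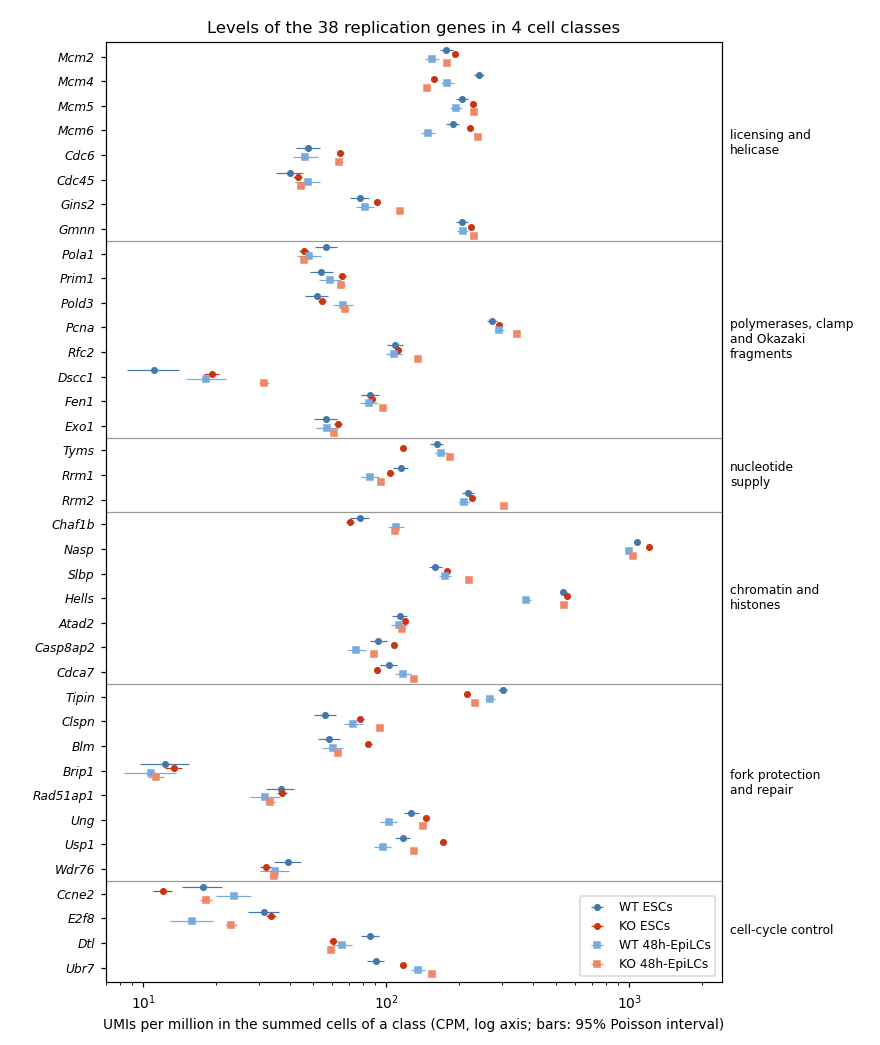
Level of each of the 38 replication genes in the summed cells of 4 classes, in CPM on a log axis, grouped by role; bars are 95% Poisson intervals and cover counting error. Nasp is highest near 1000 CPM in every class, Brip1, Dscc1, Ccne2 and E2f8 lie at the low end, and Mcm4, Tyms, Hells and E2f8 are among the genes whose classes stand apart.

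There was 1 library per stage and no replicate of either line, so that no test was made, the intervals below cover counting error only, and the stage cannot be told apart from the library. Log2 ratios are of CPM + 1. In KO over WT cells, 28 of 38 members were higher in ESCs (median log2 ratio 0.10, range -0.61 to 0.74) and 30 of 38 in 48h-EpiLCs (median 0.16, range -0.36 to 0.76). Over all genes at 5 CPM or more on average, the median was 0.12 in ESCs (9277 genes) and 0.07 in 48h-EpiLCs (9385 genes), and 16 of 38 members in ESCs and 24 of 38 in 48h-EpiLCs lay above that median. The counting interval of the line ratio was above 0 for 19 members and below 0 for 9 in ESCs, against 39.3% and 19.4% of all genes, and above 0 for 24 and below 0 for 3 in 48h-EpiLCs, against 31.9% and 18.7% of all genes. Such intervals narrow with abundance, for which the members and all genes were not matched. Scaling by median-of-ratios size factors turned the member median in ESCs to -0.02, with all genes at 0.00, and over all alternatives tried the sign of the ratio was kept for 24 of 38 members between lines in ESCs and for 31 of 38 in 48h-EpiLCs. In 48h-EpiLCs over ESCs, 16 of 38 members were higher in WT cells (median -0.03, all genes 0.03) and 20 of 38 in KO cells (median 0.03, all genes -0.02). Feeder markers were higher in KO than in WT ESCs, as given above, and without cells bearing 3 or more markers of another type the member medians of the line ratio were 0.10 in ESCs and 0.16 in 48h-EpiLCs. All 38 members passed the 5 CPM filter in each of the 4 comparisons.

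Few members passed a 1.5-fold difference. Between lines in ESCs, Dscc1 was higher and Mcm4 lower in KO cells, that is 1 of 38 members in each direction, where 12.4% of all genes were higher and 4.98% lower by this rule. Between lines in 48h-EpiLCs, Dscc1 and Mcm6 were higher in KO cells and no member was lower, against 8.07% and 4.3% of all genes. Between stages in WT cells, Dscc1 was higher and E2f8 lower in 48h-EpiLCs, against 13.3% and 11.4% of all genes. Between stages in KO cells, Dscc1, Tyms and Chaf1b were higher and no member lower, against 8.55% and 10.1% of all genes. At this threshold and scaling, the share of members past it was below that of all genes in each of the 8 counts. The members and all genes were not matched on abundance here either, and counting error is wider for genes with few UMIs. Under TMM scaling, 4 of 38 members were lower in KO than in WT ESCs, against 6.94% of all genes, and at a threshold ratio of 5 to 4 the members higher in KO 48h-EpiLCs made up 31.6%, against 21.1% of all genes. With the lines split by Y-linked counts alone (0 against 2 or more), whatever the tdTomato count, Mcm4 and Dscc1 no longer passed it in ESCs, at -0.34 and 0.53, and neither did Mcm6 and Dscc1 in 48h-EpiLCs, at 0.43 and 0.34.

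**Figure D2:**
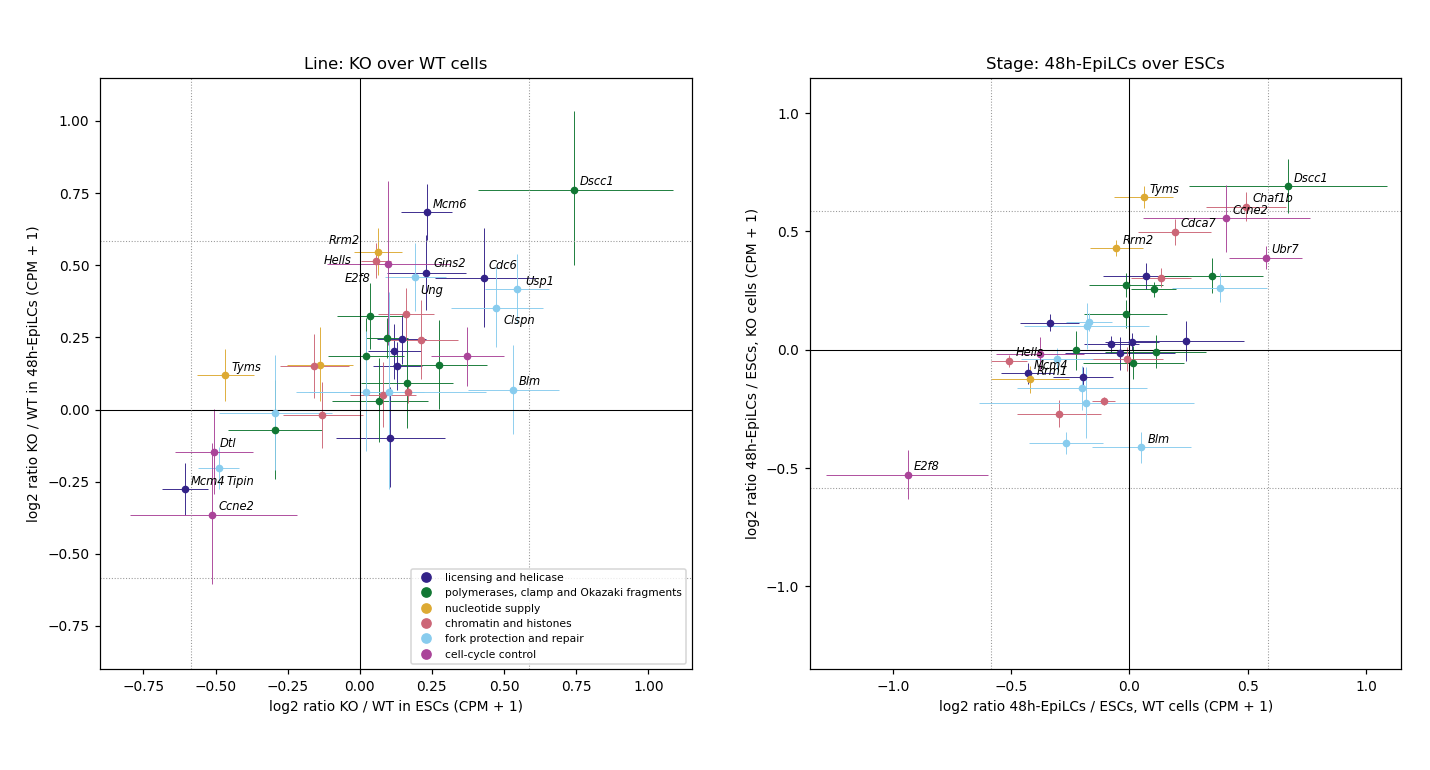
Log2 ratios of the 38 members on the CPM + 1 scale, left for KO over WT cells in ESCs (x axis) and 48h-EpiLCs (y axis), right for 48h-EpiLCs over ESCs in WT cells (x axis) and KO cells (y axis). Bars are 95% intervals of counting error, colours give roles and dotted lines mark 1.5-fold; Dscc1 lies at the upper right in both panels, Mcm4, Ccne2, Tipin and Dtl at the lower left of the line panel and E2f8 at the lower left of the stage panel.

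Among the genes for licensing and the helicase, the subunits of the MCM ring did not move together between the lines. Mcm4 (chr16:15623897-15637400 in GRCm38, minus strand) stood at 241 CPM in WT ESCs, 158 CPM in KO ESCs, 179 CPM in WT 48h-EpiLCs and 147 CPM in KO 48h-EpiLCs. It was lower in KO cells at both stages, by a log2 ratio of -0.61 (interval -0.69 to -0.52) in ESCs and -0.28 (-0.37 to -0.19) in 48h-EpiLCs. Mcm6 stood at 187 CPM in WT ESCs, 220 CPM in KO ESCs, 148 CPM in WT 48h-EpiLCs and 239 CPM in KO 48h-EpiLCs. Its ratio of KO to WT was thus in the opposite direction to that of Mcm4, at 0.23 (0.14 to 0.32) in ESCs and 0.68 (0.59 to 0.78) in 48h-EpiLCs. Mcm2 and Mcm5, 2 further subunits of the ring, had log2 ratios of KO to WT of 0.12 and 0.15 among ESCs, and of 0.20 and 0.24 among 48h-EpiLCs, although Mcm2 in ESCs was at -0.01 under median-of-ratios scaling. In WT cells, the 4 subunits ran lower in 48h-EpiLCs than in ESCs, with ratios of -0.43 for Mcm4, -0.34 for Mcm6, -0.20 for Mcm2 and -0.08 for Mcm5, whose interval included 0. Over the whole libraries, whatever the line, Mcm6 was at 0.06 between stages.

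Cdc6, the loader of the MCM ring, stood at 47.8 CPM in WT ESCs, 64.8 CPM in KO ESCs, 46.5 CPM in WT 48h-EpiLCs and 64.1 CPM in KO 48h-EpiLCs. It was higher in KO cells by 1.36-fold and 1.38-fold, and its stage ratio had an interval that included 0 in either line (-0.04, -0.27 to 0.20 in WT cells and -0.01, -0.08 to 0.05 in KO cells). Gins2, a subunit of the GINS complex, stood at 78.0 CPM in WT ESCs, 91.6 CPM in KO ESCs, 81.8 CPM in WT 48h-EpiLCs and 114 CPM in KO 48h-EpiLCs, and was highest in the last class. Cdc45, the other activator of the helicase, lay between 40.1 and 47.6 CPM in the 4 classes, and its intervals included 0 in all comparisons. Gmnn, which encodes geminin, the inhibitor of the loading factor Cdt1, lay between 205 and 229 CPM, with line ratios of 0.13 in ESCs and 0.15 in 48h-EpiLCs and stage ratios whose intervals included 0.

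In the group of polymerases, clamp and Okazaki fragment enzymes, 7 of 8 members had ratios above 0 in KO over WT cells at each stage. Of all genes, 63.3% in ESCs and 59.4% in 48h-EpiLCs did. Above the median of all genes lay 3 of the 8 in ESCs and 6 in 48h-EpiLCs. The ratios of Fen1, Pcna, Pold3 and Rfc2 in ESCs and of Pold3 in 48h-EpiLCs fell below 0 under median-of-ratios scaling. Dscc1, a subunit of the alternative clamp loader that links replication to sister chromatid cohesion, was the member with the highest ratio in both line comparisons and in both stage comparisons. It stood at 11.05 CPM in WT ESCs, 19.1 CPM in KO ESCs, 18.2 CPM in WT 48h-EpiLCs and 31.5 CPM in KO 48h-EpiLCs, the first from 68 UMIs and the third from 113. The log2 ratios were 0.74 (0.41 to 1.09) and 0.76 (0.50 to 1.03) for KO over WT cells and 0.67 (0.25 to 1.09) and 0.69 (0.58 to 0.80) for 48h-EpiLCs over ESCs. An exon of Dscc1 overlaps a gene annotated on the other strand, which holds for 9 of the 38 members.

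Pcna, the sliding clamp, stood at 272 CPM in WT ESCs, 290 CPM in KO ESCs, 292 CPM in WT 48h-EpiLCs and 347 CPM in KO 48h-EpiLCs. Rfc2, a subunit of the clamp loader, lay between 108 and 111 CPM in WT ESCs, KO ESCs and WT 48h-EpiLCs and at 135 CPM in KO 48h-EpiLCs. For both genes the class of KO 48h-EpiLCs stood above the others. Pola1, the X-linked catalytic subunit of DNA polymerase alpha, was the exception in ESCs and lower in KO cells, at 45.9 CPM against 56.5 CPM in WT ESCs (-0.30, -0.46 to -0.13), with 48.2 and 45.8 CPM in WT and KO 48h-EpiLCs. Its partner Prim1, the catalytic subunit of primase, was higher in KO ESCs, at 65.7 CPM against 54.1 CPM, and lay at 58.5 and 65.3 CPM in WT and KO 48h-EpiLCs. Pold3, a subunit of DNA polymerase delta, was higher at 48 h in both lines, with line intervals that included 0, at 51.8 and 54.4 CPM in WT and KO ESCs and 66.4 and 67.8 CPM in WT and KO 48h-EpiLCs. The flap endonuclease Fen1 lay between 85.1 and 96.9 CPM and the exonuclease Exo1 between 56.4 and 63.2 CPM.

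The 3 genes of nucleotide supply differed in how the lines compared at the 2 stages. Tyms, thymidylate synthase, stood at 162 CPM in WT ESCs, 117 CPM in KO ESCs, 169 CPM in WT 48h-EpiLCs and 183 CPM in KO 48h-EpiLCs. The KO ESCs thus lay apart from the 3 other classes, with a ratio to WT of -0.47 (-0.56 to -0.37) in ESCs against 0.12 (0.03 to 0.21) in 48h-EpiLCs. Rrm2, the small subunit of ribonucleotide reductase, stood at 217 CPM in WT ESCs, 226 CPM in KO ESCs, 209 CPM in WT 48h-EpiLCs and 305 CPM in KO 48h-EpiLCs. Here the KO 48h-EpiLCs lay apart, with a ratio to WT of 0.06 (-0.02 to 0.15) in ESCs and 0.55 (0.47 to 0.63) in 48h-EpiLCs. Rrm1, the large subunit, stood at 115, 104, 85.5 and 95.4 CPM in WT ESCs, KO ESCs, WT 48h-EpiLCs and KO 48h-EpiLCs, and did not follow Rrm2.

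Chromatin and histone genes held the most abundant members. Nasp stood at 1077 CPM in WT ESCs, 1209 CPM in KO ESCs, 998 CPM in WT 48h-EpiLCs and 1041 CPM in KO 48h-EpiLCs, lower at 48 h in both lines. Hells stood at 536 CPM in WT ESCs, 557 CPM in KO ESCs, 377 CPM in WT 48h-EpiLCs and 539 CPM in KO 48h-EpiLCs. The low class of Hells was thus the WT 48h-EpiLCs, with a stage ratio of -0.51 (-0.58 to -0.43) in WT cells against -0.05 (-0.07 to -0.02) in KO cells. Cdca7, which works with Hells at chromatin, did not share this pattern and was higher at 48 h, at 103 and 91.8 CPM in WT and KO ESCs and 117 and 130 CPM in WT and KO 48h-EpiLCs. Chaf1b, a subunit of the CAF-1 histone chaperone, was a stage gene as well, at 77.8 and 71.1 CPM in WT and KO ESCs and 110 and 109 CPM in WT and KO 48h-EpiLCs, with ratios of 0.49 and 0.60 and with line ratios whose intervals included 0. Slbp, which binds the stem-loop of histone transcripts, was highest in KO 48h-EpiLCs, at 220 CPM against 159 to 178 CPM in the 3 other classes. Casp8ap2, known from the processing of histone transcripts, was lower at 48 h, with log2 ratios of -0.30 in WT cells and -0.27 in KO cells. Atad2, a bromodomain ATPase, lay between 113 and 120 CPM with every interval including 0.

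Of the 8 genes for fork protection and repair, 6 had ratios above 0 in KO over WT cells at each stage, where 63.3% of all genes in ESCs and 59.4% in 48h-EpiLCs did. Of these 8, 4 in ESCs and 3 in 48h-EpiLCs lay above the median of all genes, and the signs of Brip1 and Rad51ap1 changed under some alternative in both comparisons, as did that of Wdr76 in 48h-EpiLCs. Usp1, a deubiquitinase that acts on PCNA and FANCD2, stood at 117 CPM in WT ESCs, 171 CPM in KO ESCs, 96.8 CPM in WT 48h-EpiLCs and 130 CPM in KO 48h-EpiLCs. Both its line and its stage ratios were apart from 0, at 0.54 and 0.42 for KO over WT and at -0.27 and -0.39 for 48h-EpiLCs over ESCs. Clspn, which encodes claspin, an adaptor of the checkpoint kinase Chk1, stood at 56.1 CPM in WT ESCs, 78.2 CPM in KO ESCs, 73.3 CPM in WT 48h-EpiLCs and 93.9 CPM in KO 48h-EpiLCs, and was higher in KO cells and at 48 h. Blm, a helicase of the RecQ family, had a line ratio apart from 0 in ESCs, at 58.0 CPM in WT ESCs and 84.2 CPM in KO ESCs (0.53, 0.38 to 0.69) against 60.1 and 63.1 CPM in WT and KO 48h-EpiLCs (0.07, -0.08 to 0.22). Tipin, a partner of Timeless at the fork, was lower in KO cells at both stages, at 301 CPM in WT ESCs, 214 CPM in KO ESCs, 267 CPM in WT 48h-EpiLCs and 232 CPM in KO 48h-EpiLCs. The uracil glycosylase Ung stood at 127, 145, 102 and 141 CPM in WT ESCs, KO ESCs, WT 48h-EpiLCs and KO 48h-EpiLCs, lowest in WT 48h-EpiLCs. Rad51ap1 lay between 31.8 and 37.3 CPM, Wdr76 between 32.0 and 39.5 CPM and the helicase gene Brip1 between 10.8 and 13.3 CPM, the last from 67 to 668 UMIs.

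The 4 members grouped under cell-cycle control, a grouping by hand that these data do not check, moved in different directions. E2f8, a repressor of E2F targets, stood at 31.4 CPM in WT ESCs, 33.6 CPM in KO ESCs, 15.9 CPM in WT 48h-EpiLCs and 23.0 CPM in KO 48h-EpiLCs, lower at 48 h in both lines. Its stage ratio was -0.94 (-1.28 to -0.60) in WT cells and -0.53 (-0.63 to -0.43) in KO cells, on 99 UMIs in the WT 48h-EpiLCs. Ccne2, cyclin E2, stood at 17.5 CPM in WT ESCs, 12.0 CPM in KO ESCs, 23.6 CPM in WT 48h-EpiLCs and 18.1 CPM in KO 48h-EpiLCs, lower in KO cells and higher at 48 h. Dtl, the receptor through which a ubiquitin ligase degrades licensing factors, was lower in KO ESCs, at 60.3 CPM against 85.9 CPM in WT ESCs (-0.51, -0.64 to -0.37), with 65.9 and 59.5 CPM in WT and KO 48h-EpiLCs. Ubr7 stood at 90.5, 117, 135 and 154 CPM in WT ESCs, KO ESCs, WT 48h-EpiLCs and KO 48h-EpiLCs and was higher both at 48 h and in KO cells.

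Most line ratios of the members had the same sign at both stages, as did those of most genes. Of the 38 members, 27 were higher in KO cells at both stages, 7 lower at both and 4 in opposite directions, with Pearson's r = 0.70 and Spearman's rho = 0.60 over the 38 genes, which share their libraries and are no replicates. The sign was the same for 89.5% of members and 74.3% of 8827 genes, and for 68.4% and 73.4% after the median of all genes was subtracted, and the same measure over the 8827 genes gave r = 0.69. The counting intervals of the 2 line ratios did not overlap for 14 members, and in 12 of these the ratio of KO to WT was higher in 48h-EpiLCs, among them Tyms, Rrm2, Hells and Mcm6, with Blm and Nasp as those lower. Among the 8827 genes, the intervals did not overlap with the ratio higher in 48h-EpiLCs for 9.01% and lower for 9.7%, without matching on abundance. This difference between stages was not tested.

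The remaining replication genes, 71 listed by function, had median ratios close to those of the members. In KO over WT ESCs their median log2 ratio was 0.07 over the 69 measured. Past 1.5-fold, 2 were higher (2.9%) and 0 lower, against 12.4% and 4.98% of all genes. In 48h-EpiLCs the median was 0.12 over 69, with 2 higher (2.9%) and 0 lower, against 8.07% and 4.3% of all genes. Between stages in WT cells it was -0.04. There 4 of 69 were higher (5.8%) and 7 lower (10.1%), against 13.3% and 11.4% of all genes and 2.63% of members each way. Between stages in KO cells it was 0.00. There 4 of 70 were higher (5.71%) and 3 lower (4.29%), against 8.55% and 10.1% of all genes. Ticrr, which helps to load Cdc45, was the replication gene with the lowest stage ratio in both lines, at 42.9 CPM in WT ESCs and 15.8 CPM in WT 48h-EpiLCs and at 49.97 CPM in KO ESCs and 20.0 CPM in KO 48h-EpiLCs. Cdc7, the kinase that fires origins, was among the 2 highest at 20 CPM or more in both lines, at 14.6 and 25.1 CPM in WT cells and 17.5 and 30.7 CPM in KO cells. Ccne1, the gene for cyclin E1, was higher in KO ESCs, at 564 CPM against 363 CPM in WT ESCs, whereas Ccne2 was lower there. Other genes named by size were Orc3 (0.96) and Msh6 (-0.89) between stages in WT cells, Rnaseh2b (0.77) and Ccne1 (-0.80) between stages in KO cells, Asf1b (0.78), Prim2 (-0.48) and Dbf4 (-0.41) between lines in ESCs, and Cdt1 (0.60), Pole2 (0.56), Wdhd1 (-0.39) and Prim2 (-0.38) between lines in 48h-EpiLCs, all as log2 ratios.

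For a score per cell, each cell was thinned at random to 5000 UMIs and the UMIs of the 38 genes were summed, so that each cell entered with the same number of UMIs. Over cells, the thinned score still had a correlation with the log of the total UMIs of -0.08 in WT ESCs, -0.10 in KO ESCs, -0.15 in WT 48h-EpiLCs and -0.16 in KO 48h-EpiLCs, whose part in the shares below was not tested. Cells below 5000 UMIs were left out, 1 WT ESC, 23 KO ESCs, 1 WT 48h-EpiLC and 9 KO 48h-EpiLCs. A high-scoring cell held at least 33 such UMIs, the 75th percentile of all kept cells of both libraries. The median score was 27 UMIs in WT ESCs, 29 in KO ESCs, 26 in WT 48h-EpiLCs and 30 in KO 48h-EpiLCs. High-scoring cells made up 21.9% of WT ESCs (exact 95% interval 18.1% to 26.1%), 32.5% of KO ESCs (30.8% to 34.2%), 17.4% of WT 48h-EpiLCs (13.7% to 21.7%) and 36.7% of KO 48h-EpiLCs (34.9% to 38.4%). The share was higher in the KO class of either library. The intervals cover the sampling of cells within 1 library and 1 derivation per line, cells are no replicates, and no difference between lines or stages is called from them. The score was spread around a single broad peak, with a small tail of KO ESCs at 1 to 6 UMIs, and between 15.5% and 23.5% of the cells lay within 2 UMIs of the threshold, so that a high-scoring cell is one end of a range and not a cell type. With cells matched on total UMIs the shares were 19.6%, 31.0%, 18.3% and 39.2%, in the same order of classes. With the 90th percentile as the threshold they were 9.45%, 12.3%, 4.63% and 16.4%, and the intervals of WT and KO ESCs then overlapped (6.86% to 12.6% and 11.1% to 13.5%).

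**Figure D3:**
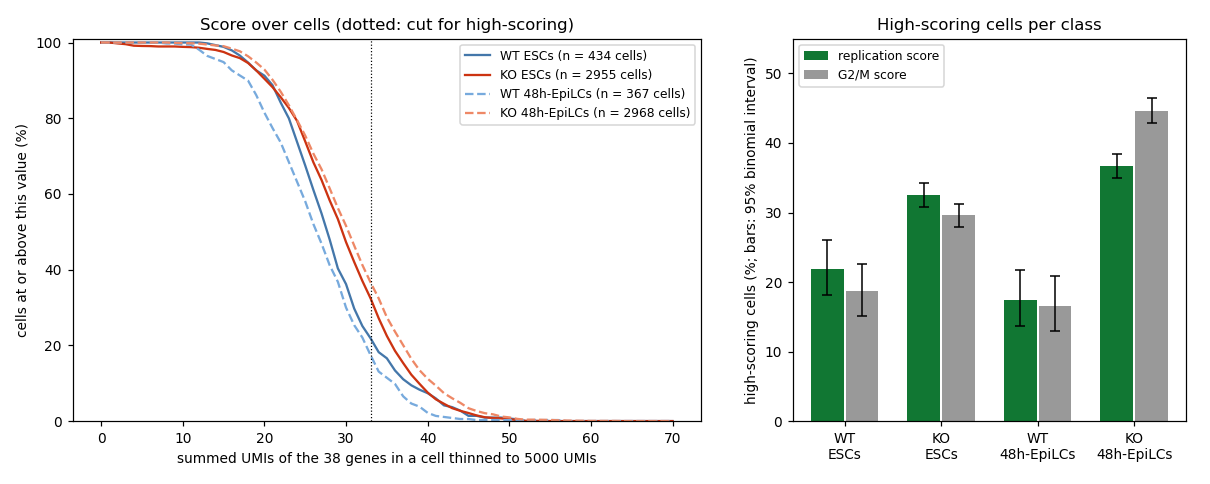
Left, share of cells (y axis, %) whose summed UMIs of the 38 genes, after thinning to 5000 UMIs, reach the value on the x axis, by class; the dotted line is the threshold of 33 UMIs. Right, share of high-scoring cells by the replication genes and by 52 G2/M genes, with exact 95% binomial intervals; KO 48h-EpiLCs are highest for both (36.7% and 44.6%) and WT 48h-EpiLCs lowest (17.4% and 16.6%).

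Genes of the G2 and M phases moved with the lines in the same direction. A score over 52 such genes, led in level by Hmgb2, Tubb4b and Top2a, was high by the same rule (57 or more UMIs of 5000) in 18.7% of WT ESCs, 29.6% of KO ESCs, 16.6% of WT 48h-EpiLCs and 44.6% of KO 48h-EpiLCs. The G2/M genes had a median line ratio of 0.15 in ESCs and 0.23 in 48h-EpiLCs, against 0.10 and 0.16 for the members. Cells high in both scores made up 3.69% of WT ESCs, 10.9% of KO ESCs, 1.63% of WT 48h-EpiLCs and 16.2% of KO 48h-EpiLCs. Of cells high in the replication score, 16.8%, 33.5%, 9.4% and 44.1% were high in G2/M, in the same order of classes. Of the other cells, 19.2%, 27.8%, 18.2% and 44.9% were. The correlation of the scores over cells was 0.01 in WT ESCs, 0.10 in KO ESCs, -0.14 in WT 48h-EpiLCs and 0.02 in KO 48h-EpiLCs. A high value in one thus said little of the other in WT ESCs and KO 48h-EpiLCs. In WT 48h-EpiLCs, 6 cells were high in both. The part of free RNA, of the shares of cells per phase and of the depth needed to detect tdTomato or Y-linked transcripts in these differences between lines was not tested.

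Within a class the replication genes varied together from cell to cell. The variance of the score over its mean, which is 1 for counting error alone, was 1.69 in WT ESCs, 1.66 in KO ESCs, 1.92 in WT 48h-EpiLCs and 1.94 in KO 48h-EpiLCs, while its median over single members lay between 1.04 and 1.06. Each member was then compared between the top and the bottom quartile group of cells by the score of the other 37 members, so that no gene entered its own ranking. Among KO cells, 34 of 38 members were higher in the top quartile in ESCs (median log2 ratio 0.25) and 36 of 38 in 48h-EpiLCs (median 0.44). The counting intervals lay above 0 for 24 and 33 members and below 0 for none, where 8.87% and 11.2% of all other genes had an interval above 0. Among the fewer WT cells, with 106 and 91 cells per quartile, the medians were 0.31 and 0.51, and the intervals of 10 and 13 members lay above 0, against 3.35% and 2.44% of all other genes. These genes were not matched to the members on abundance. Over all other genes the median was 0.03 in KO ESCs and 0.04 in KO 48h-EpiLCs.

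The widest ratios were those of Cdc6, Ccne2 and E2f8, genes that are known to be expressed around the entry into S phase. In KO 48h-EpiLCs, Cdc6 stood at 84.5 CPM in the top and 39.1 CPM in the bottom quartile (1.09, 0.81 to 1.38) and Ccne2 at 30.2 and 13.9 CPM (1.07, 0.60 to 1.54). E2f8 followed at 32.6 and 17.1 CPM and Ung at 182 and 102 CPM. In KO ESCs, the same comparison gave 0.74 for Cdc6, 0.83 for Ccne2, 0.66 for E2f8 and 0.38 for Ung. Abundant members swung less, with Nasp at 0.22 and 0.38 and Mcm5 at 0.22 and 0.20 in KO ESCs and KO 48h-EpiLCs. Tyms did not follow the others in either class. It stood at 116 CPM in the top and 123 CPM in the bottom quartile of KO ESCs (-0.08, -0.27 to 0.12). In KO 48h-EpiLCs it stood at 171 and 179 CPM (-0.06, -0.22 to 0.09). It was the lowest member in neither, as the lowest ratios were -0.26 and -0.15. The intervals of 14 members in KO ESCs and 5 in KO 48h-EpiLCs included 0. Pola1 and Dscc1 had ratios of opposite sign in the 2 classes, with intervals that included 0.

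**Figure D4:**
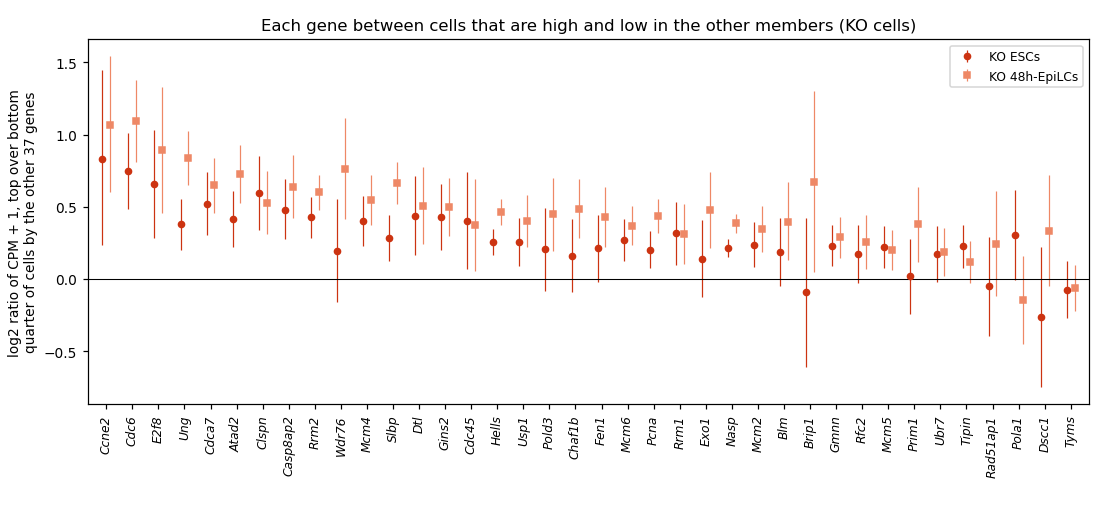
Log2 ratio of each member (CPM + 1) between the top and bottom quartile of KO cells ranked by the other 37 members, in ESCs (circles) and 48h-EpiLCs (squares), with 95% counting intervals, ordered by the mean of both. Ccne2, Cdc6 and E2f8 are at the left with ratios from 0.66 to 1.09, and Tyms is at the right below 0.

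Replication genes outside the set followed the score as well. Of the 70 measured, 54 were higher in the top quartile of KO ESCs (median 0.19) and 63 in that of KO 48h-EpiLCs (median 0.27). Of all genes but the members, 5021 of 9310 and 5254 of 9452 were higher there. Among WT cells, 49 of 68 were higher in ESCs (median 0.25) and 41 of 68 in 48h-EpiLCs (median 0.13). Of all genes but the members, 4360 of 8902 and 4365 of 9245 were higher in these WT classes. Orc1, the largest subunit of the origin recognition complex, stood at 46.5 and 27.2 CPM in KO 48h-EpiLCs, and Mcm3 at 340 and 219 CPM. The G2/M genes did not follow it, with a median of 0.05 in KO ESCs and -0.01 in KO 48h-EpiLCs. The top quartiles were shallower in total UMIs before thinning, at medians of 12512 against 14305 UMIs in KO ESCs and 16203 against 19475 UMIs in KO 48h-EpiLCs, and the part of this in the ratios was not tested.

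Ranked by the G2/M score instead, members were spread around 0 in KO cells and in WT ESCs, and most were below 0 in WT 48h-EpiLCs. In KO 48h-EpiLCs the median over the 38 members was 0.02 (range -0.92 to 0.24), and in KO ESCs it was 0.03 (-0.31 to 0.50). In WT ESCs it was 0.01, with 19 members above and 17 below 0, and in WT 48h-EpiLCs it was -0.20 (-2.70 to 0.42), with 7 above and 27 below. In each WT class 5 members were past 1.5-fold lower (13.2%), against 13.3% of all genes outside the G2/M list in ESCs and 15.1% in 48h-EpiLCs. In the whole ESC library, where both lines are mixed, the median was 0.06, with 26 members above and 12 below 0. Mcm4 was at -0.21 there and at 0.18 within KO ESCs, and Dtl at -0.27 and -0.31. Clspn was at 0.44 and 0.21, the latter with an interval that included 0. The part of the mixture of lines in these values was not tested.

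Cells of the ESC library with the marks of feeder fibroblasts were low in every member. Feeder cells are mitotically inactivated fibroblasts. The 106 cells with at least 3 of 10 fibroblast markers and at most 2 of 6 pluripotency markers, limits set after the data were seen, held 898 CPM of the 38 genes together (845 to 954), against 5657 CPM (5645 to 5670) in the 10612 cells with under 3 markers of any other type. All 38 members were past 1.5-fold lower in them, against 35.3% of all genes, with a median log2 ratio of -2.44 and a range from -4.12 to -1.17. Hells stood at 34.6 against 543 CPM, Nasp at 94.6 against 1141 CPM, Ung at 9.29 against 143 CPM and Rrm2, the least distant of the abundant members, at 99.7 against 228 CPM. Exo1 and Dscc1 were at or under 3 UMIs in these cells. After thinning their median score was 3 UMIs (quartiles 2 and 5), against 28 in the others. The 213 cells with at least 3 fibroblast markers, whatever their pluripotency markers, held 2402 CPM at a median score of 8 UMIs (quartiles 3 and 17). The limit on pluripotency markers can leave out cells with more free ESC RNA, so the part of such RNA in these scores was not tested. Of the 106 cells, 22 carried 2 or more Y-linked counts and fell in the KO class and 0 in the WT class. Without cells bearing 3 or more markers of another type the share of high-scoring cells was 34.0% in KO ESCs and 22.4% in WT ESCs.

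**Figure D5:**
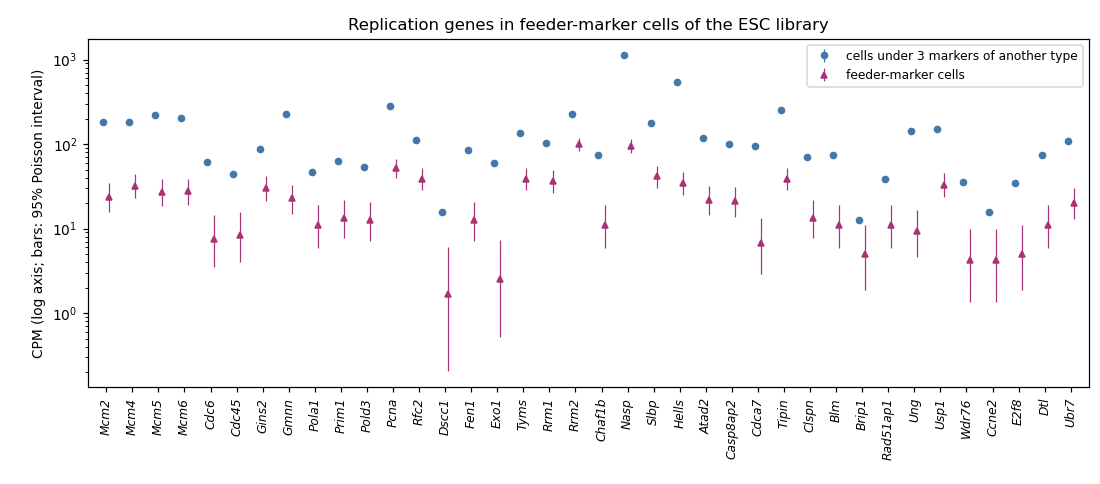
Level of each member, in CPM on a log axis with 95% Poisson intervals, in 106 feeder-marker cells (triangles) and in 10612 cells of the ESC library with under 3 markers of another type (circles). Every triangle lies below its circle.

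Cells with primitive endoderm or 2-cell markers were also lower in the members, at a smaller distance than the feeder-marker cells. In the ESC library, cells with under 3 markers of another type held 5657 CPM at a median score of 28 UMIs. The 211 cells of the ESC library with at least 3 primitive endoderm markers held 4812 CPM of the members, at a median score of 25 UMIs, and the 22 cells with at least 3 markers of the 2-cell-like state 4458 CPM, at a median of 22.5. In the 48h-EpiLC library 29 cells with 2-cell markers held 4745 CPM at a median of 23, against 5630 CPM and a median of 28 in the cells without such markers. The 13 cells of that library with at least 3 feeder fibroblast markers did not share this, at 5514 CPM (5280 to 5756) and a median of 29.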

How the data were processed

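Droplet 3′ RNA-seq libraries of mixed WT and Cnot8 KO cells, 1 at 0 h and 1 at 48 h, were analysed. The authors deposited raw UMI counts per gene and barcode, made with Cell Ranger 3.0.2 on mm10 with the tdTomato coding sequence added, and per the labels Seurat 4 was used afterwards. The matrices hold 13184 and 12427 barcodes with 144584246 and 163771168 UMIs. Cells with at least 1000 genes and at most 10% mitochondrial counts were kept. Counts were summed per class and scaled to CPM, and log2 ratios were taken of CPM + 1 for genes at 5 CPM or more on average. Intervals are 95% exact Poisson, conditional binomial or Clopper-Pearson intervals, cover counting error only and take no account of cells or cultures. Scores used cells thinned to 5000 UMIs. Doublets were not removed from the classes. Scrublet (scanpy 1.11.5) with its automatic threshold marked 0 and 1 cells and was not relied on, and the top 10% of its scores were left out as an alternative. TMM factors came from edgeR 4.0.16 and size factors from DESeq2 1.42.0, with Python 3.11.15 and R 4.3.3. Other types were cells with 3 or more markers of feeder fibroblasts, primitive endoderm or the 2-cell state, and comparisons of cells ranked by score left these out. Members, lists and markers were chosen with earlier results of these data known. Named in full were members at 20 CPM or more in some class, the 5 highest and 5 lowest ratios per comparison, the 2 highest and 2 lowest of the other replication genes, and the 10 genes per library that followed the score most closely. Gene positions are from GENCODE vM21. The intervals and ratios were tested on simulated data.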

Additional observations from a re-analysis of the deposited data

How the results depend on the processing

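There was 1 library per stage and no replicate, so that no test was made and no spread between cultures is known. No paired analysis was possible because the labels give 1 sample per stage and no replicate numbers. Of 184 alternatives to the main values, 147 moved by less than the interval or, for counts of members, by less than 1.5-fold. The cause of the others was not tested. Between lines in ESCs the member median was 0.00 under TMM scaling (0.0043, all genes 0.03) and -0.024 under size factors. TMM gave 4 members past 1.5-fold lower there, since Dtl, Ccne2 and Tipin passed it too, against 6.94% of all genes. With equal weight for each cell, 0 members were higher between stages in WT cells (all genes 15.6%) and 2 between lines in ESCs (all genes 15.5%). The latter count was also 2 without the top 10% of doublet scores (all genes 14.7%). With cells matched on total UMIs, 3 members were higher between stages in WT cells (all genes 13.3%). At a lower threshold, a ratio of 5 to 4, counts of higher and lower members were 6 and 6 between stages in WT cells (all genes 26.4% and 22.5%), 7 and 3 between stages in KO cells (20.1% and 23.4%), 6 and 5 between lines in ESCs (29.7% and 12.4%) and 12 and 1 in 48h-EpiLCs (21.1% and 11.7%). Chaf1b between stages in KO cells was at 0.57 with equal weight for each cell and at 0.58 without other-type cells, Dscc1 between stages in WT cells at 0.53 with equal weight, and Tyms between stages at 0.41 over the whole libraries. High-scoring shares were 39.2% of KO 48h-EpiLCs with cells matched on total UMIs, 26.9% of WT ESCs and 22.1% of WT 48h-EpiLCs with 3000 UMIs (medians 26.7 in WT ESCs and 28.3 in KO ESCs, scaled to 5000 UMIs), and 28.4% of KO ESCs (median 29.2) and 34.1% of KO 48h-EpiLCs without thinning. Scored by the number of members detected, they were 27.4% of WT ESCs and 24.3% of WT 48h-EpiLCs, with medians of 16, 16, 15 and 17 members in WT ESCs, KO ESCs, WT 48h-EpiLCs and KO 48h-EpiLCs. With the 90th percentile as threshold they were 9.45%, 12.3%, 4.63% and 16.4% in that order. Split by Y-linked counts alone, an alternative added for the scores after the data were seen, WT 48h-EpiLCs had 22.0%, and with depth matched as well 21.9%, against 39.3% of KO 48h-EpiLCs. In each of these the share was above that of WT in the KO class of the same stage, whereas the medians of members detected were equal in ESCs. The median ratio between score quartiles was 0.25 within KO ESCs, against 0.37 in the whole ESC library, where lines are mixed.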

Other observations

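Single genes followed the replication score only weakly over cells, members and genes outside the lists alike. In the ESC library, correlations of members with the score of the other members had a median of 0.08 and a maximum of 0.20. In the 48h-EpiLC library these values were 0.09 and 0.22. The genes named below are all from outside the lists and lay above the member median of their library. Ncl in the ESC library lay above the highest member. Members and these genes were not matched on abundance. Over the 10139 cells of the ESC library without other-type markers, the highest correlations were those of Ncl, the nucleolar protein nucleolin (r = 0.23), Nolc1, another nucleolar phosphoprotein (0.20), L1td1 (0.19) and Ddx21, a helicase of ribosome biogenesis (0.17), followed by Set, AC160336.1, Ddx5, Hspd1, Hnrnpu and Zfp990. Ncl stood at 5365 CPM in the top and 4381 CPM in the bottom quartile of cells by score. In the 9153 cells of the 48h-EpiLC library they were Nolc1 (0.20), Hist1h1b, a linker histone (0.19), Ncl, Dnmt3a, Gm10260, Ddx21, Anp32b, Eif3a, Nop58 and Cwc22. These cells share their library and a mixture of lines, the correlations are weak, and they are given as a description.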
